A study of Mus musculus with 31 samples.

Results

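The control DN1 and DN3 cultures of day 4 made up 4 of the 31 RNA-seq libraries of the series, 2 started from DN1 thymocytes and 2 from DN3 thymocytes. They were chosen by the stage, the day and the replicate letters (c and d) of their titles, and by no measured value. All mice were C57BL/6 per the labels. Both stages carried R26-CreERT2, a tamoxifen-inducible Cre at the ROSA26 locus, and R26-stop-tdTomato, a reporter that Cre switches on, and neither carried a floxed E2A or HEB allele. The thymocytes had been kept for 4 days on OP9-DL1, a mouse bone marrow stromal line that displays the Notch ligand DL1, in medium that held SCF (stem cell factor) and the interleukins IL-2 and IL-7. RNA was taken before 4-hydroxytamoxifen (4-OHT) and without sorting, so RNA of the stromal cells was part of it. DN1 and DN3 cultures that add floxed E2A and HEB alleles (E2Af/fHEBf/f), also taken at day 4 before 4-OHT, and control DN1 and DN3 cultures sorted for tdTomato on days 5 and 7 were set beside them (n = 2 each). 4-OHT was added on day 4 per the design text, although the labels of the DN1 samples of day 7 give day 7. The sources used here do not give the surface gates that defined DN1 and DN3, the ages or the numbers of animals. No label says that 2 libraries of a group came from separate animals or cultures, so each p-value measures the spread between these samples only.

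Thymocytes that carry neither CD4 nor CD8 are called double negative (DN) and pass through ordered stages before they have a T cell receptor. DN1 cells are the earliest and still hold multipotent progenitors, with a set of stem and progenitor regulators that is later switched off, whereas DN3 cells are committed to the T lineage, rearrange the Tcrb locus and depend on Notch signals and on the E proteins E2A (gene Tcf3) and HEB (gene Tcf12). E proteins bind the E-box, a short DNA element of the letters CANNTG, and Id proteins block them.

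The 4 genes taken as stage markers separated the cultures in the directions known for DN1 and DN3 cells. Bcl11a, a zinc finger regulator of lymphoid progenitors (chr11:24078056-24174123, plus strand), had 28.9 and 27.8 CPM in DN1, against 0.461 and 1.32 CPM in DN3. Lyl1, a basic helix-loop-helix factor of blood progenitors (chr8:84701457-84704715, plus strand), had 65 and 64.5 CPM in DN1, against 3.23 and 2.63 CPM in DN3. Rag1, a subunit of the recombinase that cuts antigen receptor loci (chr2:101638282-101649501, minus strand), had 22.9 and 20.8 CPM in DN1, against 293 and 392 CPM in DN3. Bcl11b, the zinc finger factor that marks T lineage commitment (chr12:107910403-108003602, minus strand), had 256 and 221 CPM in DN1, against 1175 and 1158 CPM in DN3. Positions are those of GENCODE M21 on GRCm38 (mm10), and CPM is the count scaled to the library total. The log2 differences (DN1 over DN3, ± SE) were 4.94 ± 0.43 for Bcl11a, 4.51 ± 0.37 for Lyl1, -3.93 ± 0.40 for Rag1 and -2.25 ± 0.12 for Bcl11b. The adjusted p-values of edgeR's quasi-likelihood test were 7.38e-08, 3.63e-08, 4.73e-07 and 1.49e-09 in that order.

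The promoter windows of these 4 genes are shown because the cultures were built to test E proteins. Each runs from 250 bases before to 50 bases after a RefSeq transcript start (GRCm38.p6), written 5′ to 3′ on the strand of the gene, with E-boxes (CANNTG, a pattern that is its own reverse complement) in capitals.
Bcl11a, chr11:24080445-24080744, plus strand: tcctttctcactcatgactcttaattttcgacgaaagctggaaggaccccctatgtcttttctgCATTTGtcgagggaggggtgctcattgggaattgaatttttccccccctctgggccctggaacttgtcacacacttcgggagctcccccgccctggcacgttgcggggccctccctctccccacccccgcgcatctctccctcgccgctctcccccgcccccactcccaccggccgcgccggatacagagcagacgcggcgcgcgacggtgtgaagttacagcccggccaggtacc
Lyl1, chr8:84701207-84701506, plus strand: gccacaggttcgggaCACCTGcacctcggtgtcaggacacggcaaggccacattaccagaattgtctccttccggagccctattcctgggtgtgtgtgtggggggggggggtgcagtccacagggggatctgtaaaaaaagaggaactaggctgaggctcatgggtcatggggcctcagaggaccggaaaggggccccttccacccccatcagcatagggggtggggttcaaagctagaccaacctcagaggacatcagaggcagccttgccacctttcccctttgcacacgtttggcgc
Rag1, chr2:101649483-101649782, minus strand: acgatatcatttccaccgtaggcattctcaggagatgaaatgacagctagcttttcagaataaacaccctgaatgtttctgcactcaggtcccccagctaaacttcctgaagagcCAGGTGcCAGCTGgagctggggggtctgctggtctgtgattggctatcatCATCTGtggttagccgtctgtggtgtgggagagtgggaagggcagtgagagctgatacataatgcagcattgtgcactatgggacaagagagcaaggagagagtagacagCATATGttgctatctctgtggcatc
Bcl11b, chr12:108003365-108003664, minus strand: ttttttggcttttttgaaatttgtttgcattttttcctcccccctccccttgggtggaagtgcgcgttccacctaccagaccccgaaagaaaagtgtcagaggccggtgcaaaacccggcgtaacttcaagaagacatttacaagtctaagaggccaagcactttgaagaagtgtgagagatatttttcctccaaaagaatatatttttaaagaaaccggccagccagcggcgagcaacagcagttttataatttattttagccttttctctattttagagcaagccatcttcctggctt
The Rag1 window held 4 E-boxes, the Bcl11a and Lyl1 windows 1 each and the Bcl11b window 0. An E-box was found in 72.3% of the 32851 promoter windows of this length. The form CAGCTG stood in the Rag1 window and in 16.3% of all windows. The form CAGGTG, searched on both strands, stood in the Rag1 and Lyl1 windows and in 20.2% of all windows. These matches describe letters only. The RefSeq start of Bcl11a used here lies 2639 bases from the outermost GENCODE start of the gene, and other starts were not searched.

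**Figure D1:**
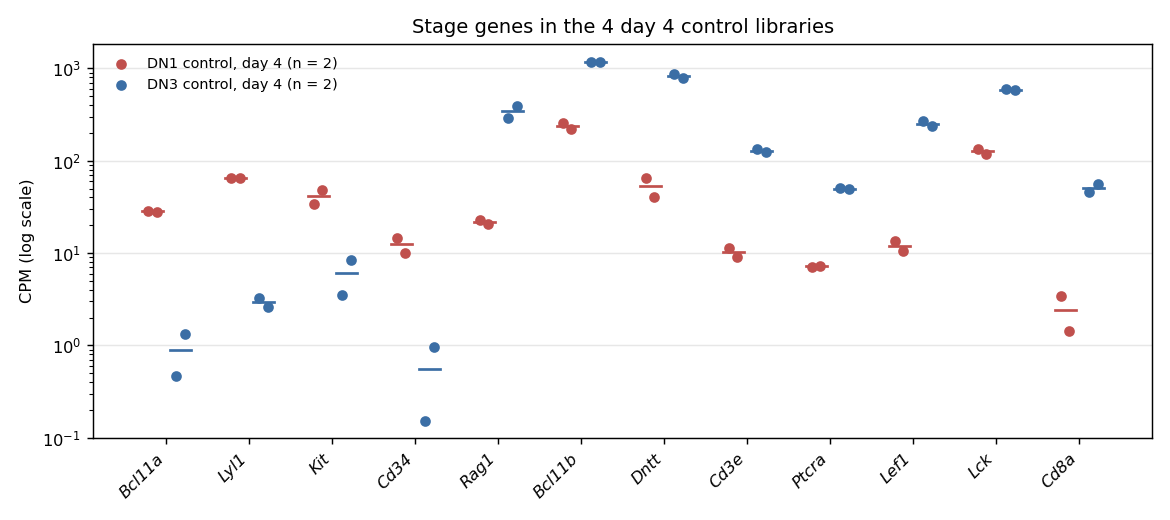
CPM on a log axis of 12 genes in the 4 day 4 control libraries; each point is 1 library and each line the mean of a group, with DN1 left of DN3. Bcl11a, Lyl1, Kit and Cd34 lie higher in DN1 and the other 8 genes lie lower in DN1.

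Across all 15172 genes tested, 6030 (39.7%) passed an adjusted p of 0.05 between the control DN1 and DN3 libraries of day 4, by edgeR's quasi-likelihood test with Benjamini-Hochberg adjustment. Of all genes tested, 3765 (24.8%) were higher in DN1 and 2265 (14.9%) were lower, and the median log2 difference was 0.09. The share of higher genes among those called depended on which libraries and genes entered the fit. Here 3765 of 6030 were higher (62.4%), against 4034 higher and 3514 lower (53.4%) when only the 4 libraries were fitted. The 8 libraries of day 4 gave 3623 higher and 3097 lower (53.9%). The 4 libraries with a replicate block gave 4071 higher and 3590 lower (53.1%). With all 24 libraries kept, the share was 54.9% with no filter on low counts and 55.8% without the stromal class described below. It was 62.2% with a replicate block in 24 libraries, 63% by DESeq2 and 64.2% with DESeq2's size factors in edgeR. In floxed cultures of day 4, 2743 (18.1%) were higher in DN1 and 1615 (10.6%) lower. In sorted control cultures, 2346 (15.5%) were higher and 2200 (14.5%) lower on day 5, and 1731 (11.4%) were higher and 1700 (11.2%) lower on day 7. Leaving out 1 library lowered some totals by more than 1.5 times: the 4358 of the floxed cultures to 2360 without DN1 b and 2409 without DN3 b, the 4546 of day 5 to 3012 without DN1 d, and the 3431 of day 7 to between 2040 and 2275 without any 1 of the 4. Each count of listed genes below is to be read against these shares, and "passed", "rose" and "fell" refer to the same threshold, in DN1 relative to DN3. With 2 libraries a group, a lack of overlap between the DN1 and DN3 values of a gene can also arise by chance. Its share over all genes was not counted, so it is not read as a result, here or for the 4 markers above.

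Stromal RNA separated the libraries. Fn1 (fibronectin) had 1336 and 1344 CPM in DN1, against 251 and 298 CPM in DN3. Col1a1, a chain of type I collagen, had 1209 and 1155 CPM in DN1, against 223 and 269.8 CPM in DN3, Bgn (biglycan) had 2039.6 and 1915 CPM in DN1, against 391 and 416 CPM in DN3, and Cxcl12, the chemokine that stroma offers to CXCR4, had 5426 and 4953 CPM in DN1, against 1160.3 and 1241 CPM in DN3. All 4 were higher in DN1, with log2 differences between 2.15 and 2.33. Of 19 stromal and matrix genes listed, 18 could be tested, and 16 of them were higher in DN1 and 0 lower, with a median log2 difference of 2.31. The list summed to 14894 and 14131 CPM in the DN1 libraries, against 3006 and 3293 CPM in the DN3 libraries. Sorted control cultures of day 5 held 73.5 to 152 CPM of the same genes and those of day 7 held 99.3 to 291 CPM. Dcn and Lum, matrix genes that many fibroblasts express, were at or near 0 in all 4 libraries. Of 6 listed genes of fat cells, a fate open to OP9 cells, 3 were tested and all 3 moved with the stromal list. Adipoq had 69.3 and 59.6 CPM in DN1, against 10.8 and 12.8 CPM in DN3. Fabp4 and Lpl were higher in DN1 by 2.32 ± 0.33 and 2.20 ± 0.46 on the log2 scale. Of the members too low to test, Plin1 had 17 pooled counts in DN1 and 4 in DN3. Cfd had 6 and 6, and Cidec 2 and 4. CPM is a share of each library, so stromal genes can also stand higher where there are fewer thymocytes or less RNA per thymocyte. In bulk RNA these, more stromal cells and more RNA per stromal cell cannot be told apart. The same holds below for every cell type.

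Genes were put in a stromal class where they fell by at least 2 on the log2 scale between unsorted day 4 and sorted day 5 cultures, past the adjusted p threshold of 0.05, in DN1 and in DN3 floxed libraries. The contrasts behind that choice used floxed libraries only, although control libraries entered the filter, scaling and spread estimate of the shared fit. Sorting, 4-OHT and a further day of culture cannot be told apart in the choice. The class held 1174 genes and took 6.69% and 6.58% of the counts in the DN1 libraries, against 1.46% and 1.61% in the DN3 libraries. Within it, 1092 genes were higher in DN1 and 3 were lower, and the median log2 difference was 2.17. In the sorted control cultures of day 5, 118 of these 1092 genes were higher in DN1 (10.8%) and 26 were lower, and the median of the class was 0.07. The 6 class members with the largest differences were Mir351, a microRNA gene, Lmod1 (leiomodin, of smooth muscle), Sorbs2, Islr, Snai1 (the Snail repressor) and Fst (follistatin), with log2 differences between 2.92 and 3.66. Snai1 had 149.9 and 98.7 CPM in DN1, against 17.2 and 16.4 CPM in DN3, and on day 5 its log2 difference was 0.07 ± 0.59.

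**Figure D2:**
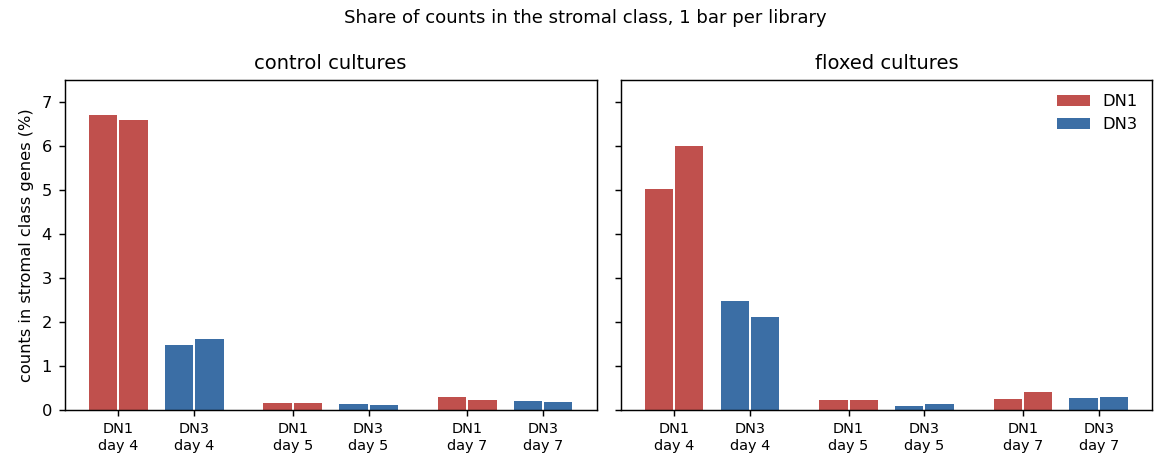
Percent of each library's counts in the 1174 genes of the stromal class, 1 bar per library, for control cultures (left) and floxed cultures (right). The unsorted day 4 DN1 libraries stand highest, at 6.69% and 6.58% in controls, and every sorted library lies between 0.0865% and 0.409%.

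Outside the stromal class, where 13998 genes were tested, 2673 (19.1%) were higher and 2262 (16.2%) were lower, and the median log2 difference was 0.02. The larger of these counts was not the same in every fit: the 4 libraries alone gave 2892 higher and 3511 lower genes outside the class, the 8 libraries of day 4 gave 2495 and 3094, and no filter on low counts gave 2148 and 2630. Of the 2673 higher genes outside it, 709 (26.5%) fell by at least 1 on the log2 scale between unsorted day 4 and sorted day 5 floxed DN1 cultures, against 75 of the 2262 lower genes (3.32%) and 344 of the 9063 genes not called (3.8%). That interval holds sorting, 4-OHT, which deletes E2A and HEB in these cultures, and a day of culture, which cannot be told apart. For some genes and lists, but not for all, the sorted cultures are given beside the day 4 values below. Totals were 8386116 and 7009503 counts in the DN1 libraries and 6510587 and 8357738 in the DN3 libraries. Mitochondrial genes took 2.75% and 2.67% of counts in DN1 and 2.51% and 2.56% in DN3.

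The 12 largest rises outside the class include globin, mast cell and progenitor genes. Fgf3, a growth factor gene, had 37.9 and 41.4 CPM in DN1, against 0.307 and 0.718 CPM in DN3. The adult beta-globin genes Hbb-bt and Hbb-bs differed by 5.92 ± 0.67 and 4.61 ± 0.67 on the log2 scale, with 176 and 220.4 CPM in DN1, against 1.23 and 5.14 CPM in DN3 for Hbb-bt. The pair is nearly identical in sequence, so reads may have been split between them. Nrgn (neurogranin, a calmodulin-binding protein) had 89.3 and 109 CPM in DN1, against 1.08 and 4.31 CPM in DN3. Cpa3, the carboxypeptidase of mast cell granules, had 86.5 and 84.6 CPM in DN1, against 3.23 and 6.22 CPM in DN3. Bcl11a, Tas1r1 (a taste receptor subunit), Lyl1, Wdfy4 (used by dendritic cells in cross-presentation), Emilin2 (a matrix glycoprotein), Muc13 (a membrane mucin) and Adgrg3 (an adhesion receptor) complete the 12, with log2 differences between 3.97 and 4.94. Of the 2673 higher genes outside the class, 1477 met the naming rule (at least 20 CPM in DN1 and no overlap between the groups). The 12 are the largest of these. All 12 also passed in the floxed libraries of day 4 and in the sorted control cultures of days 5 and 7, each time higher in DN1. In 11 of the 12, DN3 library d stood above DN3 library c, for example 4.31 against 1.08 CPM for Nrgn and 6.22 against 3.23 CPM for Cpa3. Over all genes tested outside the class the same library was higher for 57.4%.

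The 12 largest falls outside the class include genes of T cell adhesion, signalling and gene control. H2-Q2, a class Ib MHC gene, had 6.68 and 4.71 CPM in DN1, against 300.0 and 269.6 CPM in DN3, and H2-Q1 beside it had 0.835 and 0.143 CPM in DN1, against 39.5 and 27.9 CPM in DN3, although reads of these related genes may be shared. Cd2, an adhesion receptor of T cells, had 2.03 and 1.71 CPM in DN1, against 77.1 and 70.4 CPM in DN3. Ikzf3, which encodes the zinc finger factor Aiolos, had 0.835 and 0.999 CPM in DN1, against 33.9 and 37 CPM in DN3. Prkcb, a protein kinase C of antigen receptor signalling in B cells, had 12.8 and 8.13 CPM in DN1, against 256 and 267 CPM in DN3, and Lef1, an HMG-box factor of Wnt signalling and T cell development, had 13.4 and 10.6 CPM in DN1, against 266 and 237 CPM in DN3. Ighm, the constant gene of IgM heavy chains, had 7.04 and 7.85 CPM in DN1, against 156 and 143 CPM in DN3, while Pax5, which defines B cells, had at most 0.479 CPM in the 4 libraries. Arsi (a sulfatase), Tenm1 (a teneurin), Prrt1, Pdlim4 (a PDZ and LIM domain protein) and Cd8a complete the 12, with log2 differences between -5.17 and -4.29. They were drawn by the same rule from 1511 of the 2262 lower genes outside the class. All 12 passed as lower in DN1 in the floxed libraries of day 4 and in the sorted cultures of days 5 and 7 too.

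Transcription factors of progenitors were higher in DN1. Of the 14 listed, all were tested, 12 were higher and 0 lower, and the median log2 difference was 3.27 against 0.09 over all genes tested. The 12 include the markers Bcl11a and Lyl1 above. This list and the others were chosen with earlier results of these data known, so the counts describe their members only. Hhex, a homeobox factor of blood progenitors, had 15 and 14.4 CPM in DN1, against 0 and 0.598 CPM in DN3. Spi1, which encodes PU.1, the ETS factor shared by myeloid and early T cells, had 7.63 and 8.13 CPM in DN1, against 0.154 and 0.598 CPM in DN3. Meis1, the homeobox partner of Hox factors, had 23.4 and 26.7 CPM in DN1, against 6.30 and 4.31 CPM in DN3. Gfi1b, Hoxa9 and Tal1 rested on 3, 2 and 2 pooled counts in DN3, and their pooled CPM ratios were 15.8 (95% interval 5.09 to 79.1), 20.3 (5.28 to 173) and 18.3 (4.74 to 157), where the intervals cover counting error only. Mycn rose by 0.71 ± 0.27 and Erg by 1.65 ± 0.60. Lmo2 and Mef2c did not pass, at 1.64 ± 1.27 and 2.06 ± 1.02, although Mef2c passed under 4 of 12 alternatives. Cebpa, a myeloid and fat cell factor, had 66.9 and 75 CPM in DN1, against 16.4 and 16.5 CPM in DN3, but it belongs to the stromal class and its day 5 difference was -0.44 ± 0.72. In sorted day 5 cultures Hhex averaged 31.7 ± 1.70 CPM in DN1 and 0 ± 0 in DN3 (SD, n = 2 each), and Spi1 averaged 15.4 ± 1.08 CPM in DN1 and 0 ± 0 in DN3. The calls of Gfi1b (without DN1 d, DN3 c or DN3 d), Erg (without any 1 of the 4), Hoxa10 (without any 1 of the 4), Mycn (without DN1 d, DN3 c or DN3 d) and Tal1 (without DN1 d or DN3 c) were lost when 1 library was left out, with an adjusted p of up to 0.277 (edgeR).

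Surface genes of progenitors split. Of 10 listed, 7 were tested, 5 were higher in DN1 and 1 was lower, with a median of 1.94. Kit, the receptor for the SCF in the medium, had 33.7 and 48.6 CPM in DN1, against 3.53 and 8.50 CPM in DN3. Cd34, a sialomucin of stem and progenitor cells, had 14.7 and 10.1 CPM in DN1, against 0.154 and 0.957 CPM in DN3, and Cd93, another progenitor surface protein, had 80.5 and 88.5 CPM in DN1, against 22 and 20.6 CPM in DN3. Cd44, the adhesion receptor by which DN1 cells are usually gated, had 83.4 and 77.6 CPM in DN1, against 21.7 and 21.5 CPM in DN3, and Ly6a (Sca-1) differed by 1.40 ± 0.30, although not on day 5 (-0.26 ± 0.35). Slamf1 went the other way, by -1.33 ± 0.25. Flt3, the cytokine receptor of the most immature progenitors, had 2 counts in the DN1 libraries together and 1 in the DN3 libraries together, so no difference could be seen at this depth. Kit and Cd44, and Il2ra below, are usual gating markers, but RNA was taken after 4 days of culture. Il2ra was higher in DN1 as well, by 0.35 on the log2 scale. DN1 and DN3 thus name the cells that started the cultures, and the stage they had reached by day 4 was not tested. The differences of these markers are given as values and not as findings.

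Among T lineage transcription factors, 11 of 15 were lower in DN1, 2 were higher and 2 did not pass, with a median of -2.23. The marker Bcl11b above is among the lower ones. Tcf7, which encodes TCF-1, the HMG-box factor that Notch induces in early T cells, had 237 and 205 CPM in DN1, against 845 and 849 CPM in DN3. Ets1, an ETS factor of lymphocytes, had 98.3 and 93 CPM in DN1, against 536 and 574 CPM in DN3, and Satb1, a chromatin organizer of thymocytes, had 87.3 and 71.3 CPM in DN1, against 525 and 563 CPM in DN3. Ikzf1 (Ikaros) fell by 1.17 ± 0.09 on the log2 scale and Tox by 0.65 ± 0.15. Gata3 and Runx1, both needed for the first steps of the T lineage, did not pass: Gata3 had 78.1 and 65.9 CPM in DN1, against 80.2 and 91.3 CPM in DN3, and Runx1 had 135 and 134 CPM in DN1, against 175 and 173 CPM in DN3. Gata3 passed under 2 of 12 alternatives and Runx1 under 4. Sox13, a factor of gamma-delta T cells, was higher in DN1 by 1.59 ± 0.36 and Runx3 by 0.53 ± 0.17. On day 5, in sorted cells, 10 of the 15 were lower and 4 higher, and Tox was among the higher ones, at 0.39 ± 0.14. The call of Runx3 (without DN1 d or DN3 c) was lost when 1 library was left out, with an adjusted p of up to 0.175 (edgeR).

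The machinery that builds and reads the T cell receptor was lower in DN1 throughout. All 3 recombination genes fell: besides Rag1, Dntt, the template-free polymerase TdT, had 65.1 and 40.1 CPM in DN1, against 864 and 782 CPM in DN3, and Rag2, the partner of Rag1, had 5.84 and 3.57 CPM in DN1, against 22.7 and 19.6 CPM in DN3. All 5 pre-TCR and CD3 genes fell, with a median of -2.88. Ptcra, the pre-TCR alpha chain, had 7.04 and 7.28 CPM in DN1, against 51.1 and 48.8 CPM in DN3, Cd3e had 11.2 and 9.13 CPM in DN1, against 134 and 124 CPM in DN3, and Cd3d had 31.4 and 22.8 CPM in DN1, against 417 and 382 CPM in DN3. All 13 genes of TCR signalling and the T cell surface fell, with a median of -2.20. Lck, the kinase that starts TCR signals, had 136 and 118 CPM in DN1, against 595 and 581 CPM in DN3, Zap70, the kinase it activates, had 3.10 and 3.85 CPM in DN1, against 49 and 52.9 CPM in DN3, and Themis had 9.42 and 5.28 CPM in DN1, against 120.0 and 109.6 CPM in DN3. Fyn and Lcp2 fell least, by 0.43 ± 0.15 and 0.49 ± 0.11 on the log2 scale. Cd4, Cd8a and Cd8b1, the coreceptor genes, all fell, and Cd8b1 had 4.53 and 1.71 CPM in DN1, against 53.9 and 57.9 CPM in DN3. In sorted cultures, 10 of the 13 signalling and surface genes were lower on day 5 and 10 on day 7, and 0 were higher. All 5 pre-TCR and CD3 genes were lower on day 5 and 4 on day 7. The 3 recombination and 3 coreceptor genes were lower on both days. The calls of Fyn (without DN1 c, DN3 c or DN3 d) and Cd5 (without DN1 c or DN3 c) were lost when 1 library was left out, with an adjusted p of up to 0.186 (edgeR).

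Of 7 constant genes of the T cell receptor loci, 6 were lower in DN1 and 0 higher. Trbc2, a constant gene of the beta locus, had 636 and 575 CPM in DN1, against 1901 and 1931 CPM in DN3, and Trbc1 had 161 and 163 CPM in DN1, against 358 and 386 CPM in DN3, and the pair shares most of its sequence. Trdc (delta locus) had 39.7 and 34.8 CPM in DN1, against 79.4 and 81 CPM in DN3. Trac (alpha locus), a locus rearranged after the DN stages, had 1.55 and 2 CPM in DN1, against 10.3 and 12.8 CPM in DN3. Of the gamma locus, Tcrg-C1 did not pass, with 266 and 263 CPM in DN1, against 271 and 263 CPM in DN3, Tcrg-C2 fell by 0.51 ± 0.15 and Tcrg-C4 by 1.0 ± 0.15, and the 3 are similar in sequence. In sorted day 7 cultures only Trbc2 and Trac of the 7 were lower in DN1 and Tcrg-C1 was higher, at 0.64 ± 0.14. The summed CPM of the 7 genes lay at 3006 to 3017 in DN1 and 3322 to 3494 in DN3 on day 7, against 1306 to 1367 in DN1 and 3055 to 3092 in DN3 on day 4. The call of Tcrg-C2 (without DN1 c or DN3 c) was lost when 1 library was left out, with an adjusted p of up to 0.0856 (edgeR).

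**Figure D3:**
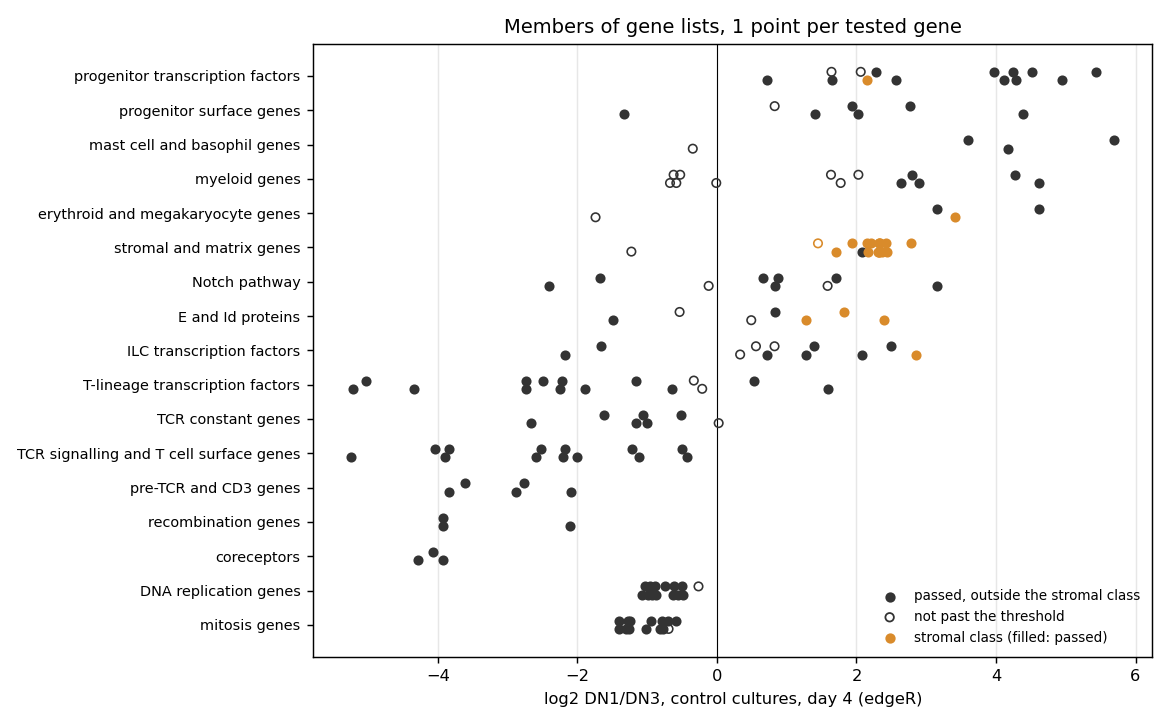
Log2 DN1/DN3 differences of the tested members of 17 gene lists in control cultures of day 4, 1 point per gene, filled where the gene passed an adjusted p of 0.05 (edgeR) and orange in the stromal class. Progenitor factors lie to the right, T cell lists lie to the left, and the stromal and matrix genes cluster near their median of 2.31.

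Notch pathway genes did not move together. Of 11 listed, 9 were tested, 5 were higher in DN1 and 2 lower. Notch1, the receptor that T lineage cells need, had 101 and 98.3 CPM in DN1, against 323 and 331 CPM in DN3, and its target Dtx1, an E3 ligase, had 30.2 and 25 CPM in DN1, against 148 and 152 CPM in DN3. Hes1, a repressor and Notch target, had 159 and 176 CPM in DN1, against 47.2 and 57.9 CPM in DN3, and Nrarp, a feedback inhibitor and Notch target, had 19.2 and 28.7 CPM in DN1, against 13.2 and 14.2 CPM in DN3. Rbpj, the DNA-binding partner of Notch, Notch2 and Hey1 were higher by 0.66 ± 0.10, 0.88 ± 0.25 and 3.16 ± 0.67. Notch3 did not pass (-0.12 ± 0.27), nor did Hes5 (1.59 ± 0.65). Hes5 passed under 4 of 12 alternatives and Notch3 under 1. The directions of Notch1, Dtx1, Hes1 and Nrarp held in sorted day 5 cells, at -0.78 ± 0.18, -1.23 ± 0.29, 1.62 ± 0.23 and 2.08 ± 0.20, all past the threshold. Dll1, the ligand that the stroma is made to carry, had 3.70 and 4.14 CPM in DN1, against 1.23 and 1.68 CPM in DN3 and did not pass, and the counts cannot separate the mouse gene from a transgene. The calls of Notch2 (without DN1 c or DN3 d) and Nrarp (without DN1 d) were lost when 1 library was left out, with an adjusted p of up to 0.0985 (edgeR).

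Of the E protein genes, Tcf12 (HEB) had 176 and 167 CPM in DN1, against 503.9 and 489 CPM in DN3. Tcf3 (E2A) had 62.8 and 66.8 CPM in DN1, against 87.1 and 106 CPM in DN3, and its difference of -0.54 ± 0.35 did not pass, although it passed under 5 of 12 alternatives. Tcf4 (E2-2) had 239 and 236 CPM in DN1, against 139 and 135 CPM in DN3. The Tcf12 difference was -1.49 ± 0.10 and the Tcf4 difference 0.83 ± 0.09, and both kept their direction past the threshold in sorted cells of day 5 (-1.22 ± 0.10 and 0.37 ± 0.09) and day 7 (-0.89 ± 0.10 and 0.42 ± 0.09). Id1, Id3 and Id4, inhibitors of E proteins, were higher in DN1 but lie in the stromal class. That class was chosen in cultures where 4-OHT deletes E2A and HEB, so membership alone does not show a stromal origin. Id3 had 904 and 901 CPM in DN1, against 359.9 and 403 CPM in DN3, whereas on day 5 it averaged 66.1 ± 0.742 CPM in DN1 and 190.5 ± 8.08 CPM in DN3, a difference of -1.51 ± 0.17. The direction of Id3 thus differed between unsorted and sorted cultures, and Id1 was higher in DN1 in both, at 2.39 ± 0.21 on day 4 and 2.39 ± 0.25 on day 5. Id2, the inhibitor that innate lymphoid cells need, had 158 and 160.4 CPM in DN1, against 117 and 116 CPM in DN3 and did not pass on day 4, with a log2 difference of 0.49 ± 0.20 that passed under 6 of 12 alternatives, DESeq2 among them. On day 5 it was lower in DN1, at -0.67 ± 0.21. The call of Id4 (without DN1 d, DN3 c or DN3 d) was lost when 1 library was left out, with an adjusted p of up to 0.137 (edgeR).

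Transcription factors of innate lymphoid cells were mixed: 6 of 11 were higher in DN1 and 2 lower. Zbtb16, which encodes PLZF, had 2.86 and 4.71 CPM in DN1, against 0.154 and 1.08 CPM in DN3. Maf had 205 and 189 CPM in DN1, against 46.4 and 48.9 CPM in DN3, Rora, a factor that group 2 innate lymphoid cells (ILC2) need, had 24.7 and 25.5 CPM in DN1, against 6.76 and 14.1 CPM in DN3, and Pparg, also of fat cells and in the stromal class, differed by 2.85 ± 0.42. Gfi1, a repressor of T cells and ILC2, had 28.4 and 27.7 CPM in DN1, against 93.8 and 89.4 CPM in DN3, and Tox2 had 12.5 and 9.42 CPM in DN1, against 54.4 and 48.2 CPM in DN3. Nfil3 and Bhlhe40 were higher by 1.39 ± 0.32 and 0.71 ± 0.16. Receptors and cytokines of ILC2 gave few calls: of 14 listed, 11 were tested, Il17rb, a chain of the IL-25 receptor, was higher in DN1 (29.1 and 27.5 CPM in DN1, against 16.6 and 17.8 CPM in DN3) and Il9r was lower (4.77 and 3.85 CPM in DN1, against 10.4 and 14 CPM in DN3). Il5 and Il13, the cytokines that define ILC2, were at 0 to 0.359 CPM in the 4 libraries. The calls of Rora (without DN1 c, DN1 d or DN3 c), Zbtb16 (without DN1 d or DN3 c) and Bhlhe40 (without DN3 c) were lost when 1 library was left out, with an adjusted p of up to 0.203 (edgeR).

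Receptors for the cytokines in the medium differed between the stages. Il7r, the IL-7 receptor alpha chain, had 16.7 and 16.4 CPM in DN1, against 45.8 and 43.1 CPM in DN3. Il2ra, the IL-2 receptor alpha chain CD25, had 485 and 533 CPM in DN1, against 419.6 and 400.0 CPM in DN3, Il2rb, the beta chain, had 9.54 and 7.70 CPM in DN1, against 30.3 and 41.5 CPM in DN3, and Il2rg, the shared gamma chain, had 33.6 and 25.3 CPM in DN1, against 59.9 and 53.8 CPM in DN3. Il4ra was higher in DN1, by 1.41 ± 0.23, and Il21r lower, by 1.88 ± 0.24. Of the feedback genes of STAT5 signalling, Socs1 had 61.1 and 65.1 CPM in DN1, against 147 and 148 CPM in DN3, Socs3 was higher by 0.68 ± 0.26, and Cish, Socs2 and Pim1 did not pass. In sorted day 5 cells Socs3 was lower in DN1, at -1.71 ± 0.30, and Il7r did not pass, at -0.25 ± 0.23. The calls of Il2ra (without DN1 d or DN3 d) and Socs3 (without any 1 of the 4) were lost when 1 library was left out, with an adjusted p of up to 0.221 (edgeR).

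Mast cell, myeloid and erythroid lists each held genes that were higher in DN1. Of 9 mast cell and basophil genes, 4 were tested and 3 were higher in DN1 (Cpa3, Mcpt8 and Gata2). Their list summed to 96.2 and 94.4 CPM in the DN1 libraries, against 3.84 and 8.26 CPM in the DN3 libraries, while the defining genes Ms4a2, Prss34 and Tpsb2 were at 0 in all 4 libraries. Mcpt8 had 65 pooled counts in DN1 and 1 in DN3, a CPM ratio of 62.8 (95% interval 10.9 to 2517, counting error only). Of 15 myeloid genes, 13 were tested and 5 were higher in DN1 (Mpo, Prtn3, S100a8, Tyrobp and Fcer1g), and the list summed to 114 and 109 CPM in the DN1 libraries, against 12.4 and 68.2 CPM in the DN3 libraries. The DN3 libraries stood apart from each other there: Lyz2, the myeloid lysozyme, had 9.06 and 13.1 CPM in DN1, against 4.15 and 30.4 CPM in DN3, and S100a9, a neutrophil protein, had 24.2 and 19.7 CPM in DN1, against 0.461 and 10.1 CPM in DN3. Fcer1g, the Fc receptor gamma chain, had 16.5 and 19.1 CPM in DN1, against 0.768 and 4.19 CPM in DN3, and Tyrobp (DAP12) 4.29 and 5.56 CPM in DN1, against 0.614 and 0.957 CPM in DN3. Elane and Adgre1, which mark neutrophil granules and macrophages, had at most 0.359 CPM. Of 7 erythroid and megakaryocyte genes 4 were tested, and the list summed to 54.1 and 70.0 CPM in the DN1 libraries, against 3.84 and 6.94 CPM in the DN3 libraries. Hbb-bs, Itga2b (CD41, 15.6 and 20.1 CPM in DN1, against 2.46 and 1.68 CPM in DN3) and Gp1bb were higher, Gp1bb within the stromal class. Pf4, of platelets, had 19 counts in DN1 and 0 in DN3, at least 6.12-fold higher in DN1 against a floor of 3 counts over the DN3 libraries. Klf1, a factor of red cell precursors, had at most 0.239 CPM. The part of such cells in the differences was not tested. The calls of Mpo (without any 1 of the 4), Prtn3 (without DN1 c or DN3 c), S100a8 (without any 1 of the 4), Tyrobp (without DN3 c) and Gp1bb (without DN3 d) were lost when 1 library was left out, with an adjusted p of up to 0.263 (edgeR).

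B cell, dendritic and NK genes gave few calls. Ebf1, a B lineage and stromal factor, was the 1 called of 3 B-lymphoid genes tested of 10, with 168 and 176 CPM in DN1, against 35.3 and 43.7 CPM in DN3, and it lies in the stromal class. Of 5 dendritic cell genes tested of 8, Irf8 was lower in DN1 (7.63 and 7.13 CPM in DN1, against 14.9 and 17.8 CPM in DN3) and Zbtb46, in the stromal class, higher; Siglech and Xcr1 were at 0. Of 8 NK and cytotoxic genes tested of 13, Nkg7, a granule membrane protein, was higher (47.9 and 46.7 CPM in DN1, against 6.91 and 20.7 CPM in DN3), and Gzma, granzyme A, had 813 and 725 CPM in DN1, against 628 and 649 CPM in DN3 without passing. The call of Zbtb46 (without DN1 c, DN3 c or DN3 d) was lost when 1 library was left out, with an adjusted p of up to 0.174 (edgeR).

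Cell cycle genes were lower in DN1 at day 4. Of 14 DNA replication genes 13 fell and 0 rose, with a median of -0.81, and of 14 mitosis genes 13 fell and 0 rose, with a median of -0.98. Mki67, the proliferation antigen Ki-67, had 146 and 126 CPM in DN1, against 366 and 377 CPM in DN3. Top2a, the topoisomerase of dividing cells, had 623 and 628 CPM in DN1, against 1563 and 1512 CPM in DN3, and Rrm2, a ribonucleotide reductase subunit, had 129.7 and 127 CPM in DN1, against 276 and 278 CPM in DN3. Gins2 and Plk1 were the members that did not pass. The replication list summed to 2537 and 2534 CPM in DN1, against 4323 and 4249 CPM in DN3. The mitosis list summed to 2364 and 2375 CPM in DN1, against 5038 and 4983 CPM in DN3. On day 5, 5 replication genes were lower and 2 higher, and 12 mitosis genes were lower. On day 7, 2 replication genes were lower and 2 higher, and 8 mitosis genes were lower. Stromal RNA, which was greater in the unsorted DN1 libraries, moved with the day 4 values, and its part in them was not tested. The calls of Mcm2 (without DN1 c), Mcm4 (without any 1 of the 4), Gins1 (without DN1 d), Bub1 (without any 1 of the 4) and Aurkb (without DN1 c, DN3 c or DN3 d) were lost when 1 library was left out, with an adjusted p of up to 0.243 (edgeR).

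**Figure D4:**
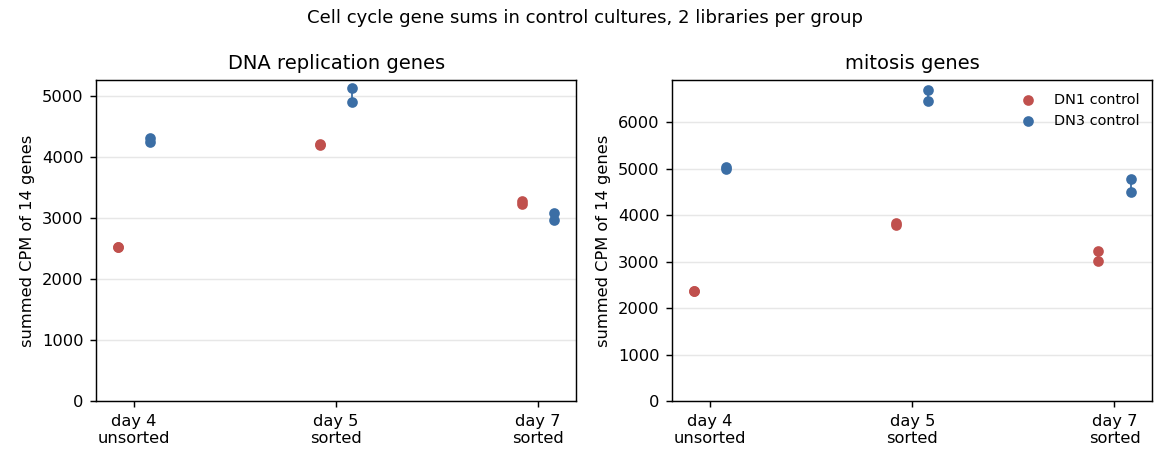
Summed CPM of 14 DNA replication genes (left) and 14 mitosis genes (right) in control cultures of days 4, 5 and 7; each point is 1 library, with DN1 left of DN3, and the axis starts at 0. The DN1 sums lie below the DN3 sums on days 4 and 5 in both lists, and on day 7 in the mitosis list.

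The D-type cyclins went opposite ways. Ccnd2 had 949 and 902 CPM in DN1, against 233 and 236 CPM in DN3, and Ccnd3, which dividing DN3 cells and later thymocytes use, had 388 and 379 CPM in DN1, against 1305 and 1342 CPM in DN3. Both differences passed in sorted cells, at 2.61 ± 0.16 and -1.33 ± 0.13 on day 5 and 1.20 ± 0.15 and -1.32 ± 0.13 on day 7. Ccne1 and Ccne2, the E-type cyclins, fell by 0.70 ± 0.15 and 0.62 ± 0.17. Ccnd1, in the stromal class, was higher by 1.99 ± 0.24. Of the inhibitors of cyclin-dependent kinases, Cdkn2d and Cdkn2c fell by 1.43 ± 0.15 and 1.30 ± 0.27, and Cdkn1a, Cdkn2a and Cdkn2b were higher by 0.53 ± 0.14, 1.66 ± 0.40 and 2.35 ± 0.68. In the Bcl2 family, 5 of 13 genes tested fell and 1 rose. Bcl2, the survival factor, had 143 and 135 CPM in DN1, against 256 and 274 CPM in DN3, and Bcl2l11, which encodes the killer BIM, had 20.4 and 18.5 CPM in DN1, against 61.3 and 52.4 CPM in DN3, whereas Bad had 70.5 and 71.2 CPM in DN1, against 36.6 and 43.6 CPM in DN3. Bcl2l1, Mcl1 and Bmf also fell, by 0.62 ± 0.19, 0.40 ± 0.12 and 1.31 ± 0.40. The calls of Ccne2 (without DN1 c or DN3 d), Cdkn1a (without DN3 d), Cdkn2b (without DN1 c or DN3 c), Bcl2l1 (without DN1 d or DN3 c), Mcl1 (without DN1 c or DN3 d) and Bmf (without DN1 d or DN3 d) were lost when 1 library was left out, with an adjusted p of up to 0.189 (edgeR).

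Metabolic and interferon genes differed little at day 4. Of 13 glycolysis and hypoxia genes, 2 were higher in DN1 (Hk2, hexokinase, at 0.60 ± 0.18, and Bnip3 at 1.48 ± 0.36) and Ndrg1 was lower (27.5 and 27 CPM in DN1, against 102 and 102 CPM in DN3). In sorted cells 7 were lower on day 5 and 11 on day 7, where Eno1 (enolase) differed by -1.33 ± 0.12 and Ldha (lactate dehydrogenase) by -0.90 ± 0.10. Of 12 genes of sterol and fatty acid synthesis, 2 fell and 0 rose, and Dhcr7, an enzyme of cholesterol synthesis, fell by 0.63 ± 0.24. Dhcr7 kept its call under only 4 of 12 alternatives, and DESeq2 was among those that lost it. Of 9 interferon response genes tested, Ifi27 was higher, by 0.65 ± 0.24. The calls of Hk2 (without DN1 c or DN3 c), Dhcr7 (without any 1 of the 4) and Ifi27 (without any 1 of the 4) were lost when 1 library was left out, with an adjusted p of up to 0.194 (edgeR).

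Of 9 chemokine receptor genes tested of 12, 2 were higher in DN1, 2 were lower and 5 did not pass. Of 11 integrin genes tested, 5 were higher, 3 were lower and 3 did not pass. Ccr9, the receptor for the thymic chemokine CCL25, had 3.70 and 1.28 CPM in DN1, against 46.4 and 47.6 CPM in DN3, and Cxcr4, the receptor for CXCL12, had 91 and 98.4 CPM in DN1, against 162 and 180.2 CPM in DN3. Ccr2 and Cx3cr1, receptors of monocytes and progenitors, were higher in DN1, with 9.30 and 14.8 CPM in DN1, against 1.84 and 3.71 CPM in DN3 for Ccr2 and 6.08 and 5.42 CPM in DN1, against 2 and 1.32 CPM in DN3 for Cx3cr1. Itga4, the integrin chain that binds VCAM-1, had 92.4 and 98.2 CPM in DN1, against 25.3 and 29.4 CPM in DN3 and was higher on days 5 and 7 too, at 3.18 ± 0.14 and 2.64 ± 0.14. Itgb2 fell, with 11.6 and 9.27 CPM in DN1, against 33.3 and 33.1 CPM in DN3. Itgb1 and Itgav were higher in DN1 at day 4 but did not pass in sorted cells, at 0.11 ± 0.11 and 0.35 ± 0.20 on day 5. Of 11 immediate early genes tested, 7 were higher in DN1 and Jund was lower. Fos had 208 and 169 CPM in DN1, against 52.2 and 79.3 CPM in DN3, Fosb, Junb, Dusp1 and Ier2 were higher by 0.56 to 1.46, and Jun and Egr1 lie in the stromal class. On day 5, Ier2 was the 1 higher gene of this list and 4 were lower. The calls of Cxcr4 (without DN1 c or DN3 d), Itgal (without DN1 c, DN1 d or DN3 c), Itgb7 (without DN3 c), Fos (without DN1 c or DN3 c), Fosb (without DN1 c, DN3 c or DN3 d), Jund (without DN1 d), Egr1 (without DN1 d or DN3 c), Dusp1 (without any 1 of the 4) and Ier2 (without DN1 d or DN3 d) were lost when 1 library was left out, with an adjusted p of up to 0.26 (edgeR).

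Xist, which is expressed from the inactive X chromosome of female cells, had 39.6 and 10.8 CPM in DN1, against 13.2 and 71.4 CPM in DN3, so that libraries of the same group differed in it. Neither Xist nor the 4 Y-linked genes listed passed in the day 4 controls, whereas all 4 Y-linked genes were higher in DN1 in the floxed libraries of day 4.

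The floxed DN1 and DN3 libraries of day 4, which share no library with the controls, were the closest repeat of the comparison. All 4 Y-linked genes listed were higher in DN1 there and none passed in the controls. The part of sex in the floxed comparison was not tested. Outside the stromal class, 1619 of the 2673 genes higher in the controls were also called higher there (60.6%, and 79.6% of the 2035 called in the floxed libraries), and 0 were called lower. Of the 2262 lower genes, 1383 were called lower in the floxed libraries (61.1%, and 85.8% of 1612), and 2 were called higher. Over all 15172 genes tested, 18.1% were higher and 10.6% lower in the floxed libraries. Rag1 differed by -2.72 ± 0.37 in the floxed libraries, Bcl11b by -1.65 ± 0.12, Bcl11a by 6.27 ± 0.53 and Lyl1 by 4.89 ± 0.40, all past the threshold. The difference between the control and floxed stage differences passed in 6 genes (0.0395% of those tested, edgeR), among 1253 with an unadjusted p under 0.05, and in no member of the gene lists. The number ranged from 2 to 18 when 1 library was left out and was 35 by DESeq2, 219 in a fit of the compared libraries alone and 286 with no filter on low counts. The stromal class had a median of 2.17 in controls and 1.27 in floxed libraries.

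In sorted control cultures the stages still differed. Of the 2673 higher genes of day 4 outside the class, 1217 (45.5%) were higher on day 5, or 54.6% of the 2227 called higher then, and 142 were lower. Of the 2262 lower genes, 1193 (52.7%) were lower on day 5, or 55.0% of 2171, and 43 were higher. On day 7 the shares were 37.2% of the higher and 38.8% of the lower genes. Over all 15172 genes tested, 15.5% were higher and 14.5% lower on day 5, and 11.4% were higher and 11.2% lower on day 7. Called in the same direction on all 3 days were 855 higher and 748 lower genes, of the 13998 tested outside the class. Tcf7, Dntt and Cd8a, chosen after their values were seen, show 2 kinds of course. Tcf7 averaged 221 ± 22.6 CPM on day 4, 421 ± 11.7 on day 5 and 535 ± 11.7 on day 7 in DN1 cultures, and its differences from DN3 were -1.90 ± 0.15, -1.02 ± 0.15 and -0.65 ± 0.15. Dntt averaged 52.6 ± 17.7, 80.9 ± 8.84 and 283 ± 17.6 CPM in DN1 cultures (SD, n = 2), with differences of -3.92 ± 0.40, -3.65 ± 0.39 and -1.64 ± 0.36. Cd8a had differences of -4.29 ± 0.58, -6.36 ± 0.73 and -7.33 ± 0.72. These rest on DN1 values near 0. All 3 coreceptor genes together summed to 5.14 to 9.30 CPM on day 4, 2.52 to 2.66 on day 5 and 2.25 to 3.15 on day 7 in DN1. In DN3 they summed to 130 to 134, 118 to 146 and 219 to 270 CPM. The change of a difference between days was not tested, and sorting, 4-OHT and time in culture cannot be told apart between day 4 and the later days.

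**Figure D5:**
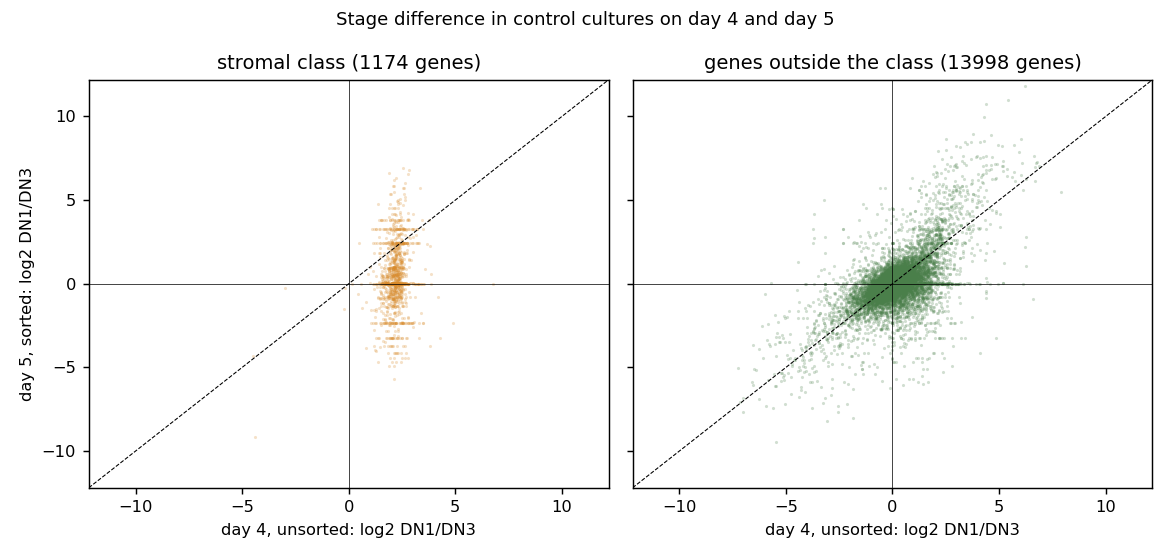
Log2 DN1/DN3 differences of control cultures on day 4 (x axis, unsorted) and day 5 (y axis, sorted), 1 point per gene, for the 1174 genes of the stromal class (left) and the 13998 other genes tested (right); the dashed line marks equal values. The class lies near its day 4 median of 2.17. On day 5 it is spread unevenly, with a median of 0.07 and quartiles of -0.62 and 1.78. The other genes spread along the line in both directions.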

How the data were processed

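RNA was extracted with Trizol and sequenced as standard Illumina libraries, per the labels' protocols. The authors deposited whole-number counts of reads per Ensembl gene in 1 table of 48881 genes, without normalization, and its 24 culture columns were matched to samples by title (0 columns had no sample). The submitters' processing notes name mm10 and DESeq2. The aligner, the counting tool, its strand setting and the annotation are not given in the labels or notes, so overlapping and antisense genes may share reads. GENCODE M21 gave names to 48664 genes.

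All 24 culture libraries (5908459 to 10692186 counts) were fitted together with edgeR 4.0.16 (R 4.3.3) as 12 group means of 2 libraries, after filterByExpr with a minimum count of 10 and TMM scaling. The quasi-likelihood test with Benjamini-Hochberg adjustment over all 15172 genes tested gave the adjusted p-values, and 0.05 was the threshold. The residual degrees of freedom were 12. Log2 differences are DN1 over DN3, with the SE taken from the F statistic, and CPM is scaled to the library total. Counts near 0 limit the precision, and intervals and the floor of 3 counts cover counting error only. The stromal class was chosen by contrasts of floxed libraries within this fit of 24 libraries. Named genes were the 12 largest changes each way outside that class among genes that passed, averaged 20 CPM or more in one stage and did not overlap between stages, without predicted genes, pseudogenes and receptor segments. The 6 largest inside the class, the 4 markers and the listed genes were named too. Members and lists were chosen with earlier results of these data known. Alternatives were DESeq2 1.42.0, its size factors, no filter, smaller fits, a replicate block, removal of the class and leaving out each library. The test was checked on simulated counts. Some listed genes are counted but not reported by name here. Promoter sequences are those of RefSeq on GRCm38.p6.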

Additional observations from a re-analysis of the deposited data

Results flagged for a closer look

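In 6 genes the DN1 over DN3 difference of day 4 was not the same in control and floxed cultures, although no 4-OHT had been given, by edgeR's quasi-likelihood test of the difference itself. Myzap, a junction protein of heart muscle, had an opposite direction: -3.14 in controls and 3.09 in floxed cultures, a log2 difference between them of -6.22 ± 1.02 (SE, adjusted p = 0.0233). It had 0.715 and 1.43 CPM in control DN1 libraries, against 10.1 and 9.09 CPM in control DN3 libraries, and 1.40 and 0.920 CPM in floxed DN1 libraries, against 0.139 and 0.119 CPM in floxed DN3 libraries. Napsa, an aspartic protease, differed between the genotypes by -3.33 ± 0.44 (adjusted p = 0.00289). It had 125 and 155 CPM in control DN1 libraries, against 27.3 and 29.2 CPM in control DN3 libraries, and 85.2 and 64.0 CPM in floxed DN1 libraries, against 0.555 and 2.27 CPM in floxed DN3 libraries.

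The other 4 had larger stage differences in controls. Aldh2, an aldehyde dehydrogenase, differed by 1.45 ± 0.20 (1.71 in controls and 0.26 in floxed cultures). Anxa2, a membrane-binding annexin, differed by 1.01 ± 0.13, Timp2, an inhibitor of matrix proteases, by 1.0 ± 0.17 and Cd63-ps, a pseudogene in the stromal class that may share reads with Cd63, by 1.18 ± 0.19. Napsa and Anxa2 passed without any 1 of the 8 libraries. Aldh2 did not pass without control DN1 c (adjusted p = 0.0609) or without control DN3 c (adjusted p = 0.104, edgeR). Myzap, Timp2 and Cd63-ps passed when floxed DN1 b was left out and did not pass when any 1 of the other 7 was, with adjusted p up to 0.604 for Myzap, 0.245 for Timp2 and 0.252 for Cd63-ps. With the replicate block Myzap (adjusted p = 0.0639) and Cd63-ps (0.0524) did not pass. Stromal RNA moved with genotype as well. The class took 6.69% and 6.58% of counts in control DN1 libraries and 5.01% and 5.98% in floxed DN1 libraries. In DN3 libraries it took 1.46% and 1.61% in controls and 2.47% and 2.11% in floxed cultures. Before 4-OHT the genotypes also differ at the floxed E2A and HEB alleles and in the DNA beside them. Myzap and Anxa2 both lie on chromosome 9. The parts of stromal RNA, of these alleles and of sex in the 6 differences were not tested.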

How the results depend on the processing

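The count of genes that passed between the day 4 controls (6030) stayed within 1.5 times under every alternative tried, between 4145 and 7661, and DESeq2 gave 5213. Its lower part (2265) was 3514 with only the compared libraries and 3590 with the replicate block in 4 libraries, and the higher part (3765) was 4034 and 4071. The difference between the control and floxed stage differences passed in 6 genes as reported, but in 286 with no filter on low counts, 219 with only the compared libraries, 35 by DESeq2, and 2 to 18 when 1 library was left out. Leaving out 1 library gave 3012 to 3366 genes on day 5 (4546 as reported), 2040 to 2275 on day 7 (3431) and 2360 to 3392 in the floxed cultures of day 4 (4358). A group left with 1 library is assumed to vary like the others. Of the 221 named genes that passed, 174 kept their call under every alternative, 47 lost it without some library, and 0 changed direction. Other alternatives lost calls too. DESeq2 lost 8 (Hoxa10, Mycn, Id4, S100a8, Zbtb46, Gp1bb, Fosb and Dhcr7). No filter lost 2 (Mycn and Socs3), and removal of the stromal class lost 2 (Bub1 and Dhcr7). DESeq2's size factors in edgeR and the block in 24 libraries each lost 1 (Dhcr7), and the 8 libraries of day 4 lost 1 (Il2ra). Uncalled genes gained a call 7 times with the block in 4 libraries, 6 with only the compared libraries, 5 each with no filter and with the 8 libraries of day 4, 2 with the block in 24 libraries and 1 by DESeq2. The Tcrg-C1 log2 change, day 4 controls (0.02 as reported, not called), was at -0.0723 with no filter, -0.0671 with only the compared libraries, -0.0811 with the 8 libraries of day 4, -0.0674 with the replicate block in 4 libraries, and -0.0199 to 0.0627 when 1 library was left out. Lmo2 (1.64, not called) ranged over -0.39 to 5.31 when 1 library was left out. The cause was not tested. Replicate letters are shared between the stages, but the deviations of same-lettered libraries correlated at r = 0.0301 over all genes and 0.0974 over the 8841 whose mean log2 CPM was above that of 10 CPM, with 2 pairs, so they are taken as labels only. The replicate block gave 6022 genes in the fit of 24 libraries and 7661 in the 4 libraries alone. The stromal class held 1412 or 953 genes at a log2 change of -1 or -3. It held 988 genes when chosen in control libraries, and 905 of these were shared with the 1174 of the reported class. Depth limits the genes with few counts in DN3, and 2 libraries a group limit all.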
